A study of Mus musculus with 9 samples.

Results

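Interferon-stimulated genes are the genes that cells switch on when an interferon binds its receptor. The 38 described here are the rows of the deposited expression table whose symbol is one of a list of 38 mouse genes, out of 31964 gene IDs. They comprise 4 sensors of foreign nucleic acid, 4 transcription factors, 3 genes of ISG15 conjugation, 4 genes of the IFIT family, 4 of the OAS family with the RNA-activated kinase PKR, 9 other antiviral or interferon-induced proteins, 8 interferon-inducible GTPases, and 2 genes of antigen presentation and chemotaxis. Of the 38, 35 passed the filter on low values and were tested, and Mx1, Ifi44 and Ifi47 did not pass it.

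RNA-seq was done on mouse liver in 3 groups of 3 libraries, named M (replicates 24, 26 and 27), A-C (replicates 6, 9 and 12) and C (replicates 2, 3 and 4) after the letters in their titles. The series evaluates MgIG (magnesium isoglycyrrhizinate, a liver-protective compound derived from licorice) in an alcohol model, named NIAAA in the labels, in which mice receive a liquid diet containing alcohol. The labels do not say which letter stands for which diet or treatment, so the groups are called by their letters. No age, sex or feeding time of the mice is given either. The strain label is C57BL6J for 8 libraries and C57BL7J for C replicate 4. Neither separate animals nor a batch are recorded, so p-values measure the spread between these libraries, which may be technical. Values given below for M, A-C or C livers are those of the libraries of that group. In livers that were sequenced whole, fewer cells of a type and less RNA per cell cannot be told apart.

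Type I interferons act through the receptor chains Ifnar1 and Ifnar2 and the kinases Jak1 and Tyk2, which lead to the assembly of the factor ISGF3, of which Stat2 and Irf9 are components. ISGF3 binds interferon-stimulated response elements (ISREs) near the start of its target genes. Interferon gamma acts through Ifngr1 and Ifngr2 and leads to binding at gamma-activated sites (GAS elements) in genes such as Irf1 and the interferon-inducible GTPases. In liver, hepatocytes, Kupffer cells (the resident macrophages) and endothelial cells all respond to interferon, and many of the induced genes are read at a low tonic level without infection.

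Sequences around the gene starts were searched for matches to these elements, which leaves sites elsewhere in the genes unseen. RefSeq windows of 250 bases before to 50 bases after a start (build GRCm38.p6) were at hand for 30 of the 38 members, in 34 windows. Irgm2 is shown because it was called in both comparisons with C and holds both elements, Isg15 and Ifit1 for their several ISRE matches, Irf1 for its GAS match, and Irf7 as a member called lower with neither. These 5 were chosen after their values were seen. The downstream bases of the windows occur in GENCODE transcripts of the same gene for all but Irgm2, whose window is thus not matched to a start in that annotation. All are written 5′ to 3′ on the strand of the gene, and capitals mark the ISRE core (GAAA, any 2 bases, GAAA) or the GAS core (TTC, any 3 bases, GAA) on either strand. Irgm2 lies at chr11:58214727-58215026 (plus strand), Isg15 at chr4:156200769-156201068 (minus strand), Ifit1 at chr19:34640639-34640938 (plus strand), Irf1 at chr11:53769764-53770063 (plus strand) and Irf7 at chr7:141266375-141266674 (minus strand).
Irgm2: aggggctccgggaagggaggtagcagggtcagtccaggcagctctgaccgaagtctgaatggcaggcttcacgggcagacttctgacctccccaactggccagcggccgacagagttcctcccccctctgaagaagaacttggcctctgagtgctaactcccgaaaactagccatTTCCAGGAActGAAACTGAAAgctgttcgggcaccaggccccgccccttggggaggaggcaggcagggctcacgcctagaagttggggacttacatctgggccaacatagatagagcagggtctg
Isg15: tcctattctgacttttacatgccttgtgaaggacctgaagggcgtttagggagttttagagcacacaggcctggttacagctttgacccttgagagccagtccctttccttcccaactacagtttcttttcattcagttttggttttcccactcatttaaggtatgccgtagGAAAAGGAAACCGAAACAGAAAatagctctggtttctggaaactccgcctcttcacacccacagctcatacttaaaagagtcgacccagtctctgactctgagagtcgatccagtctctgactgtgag
Ifit1: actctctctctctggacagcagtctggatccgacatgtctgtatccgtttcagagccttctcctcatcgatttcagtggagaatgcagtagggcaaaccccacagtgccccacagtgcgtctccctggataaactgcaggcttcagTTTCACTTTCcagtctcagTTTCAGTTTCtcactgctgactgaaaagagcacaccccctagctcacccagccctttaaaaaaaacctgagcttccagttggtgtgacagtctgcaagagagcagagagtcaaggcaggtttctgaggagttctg
Irf1: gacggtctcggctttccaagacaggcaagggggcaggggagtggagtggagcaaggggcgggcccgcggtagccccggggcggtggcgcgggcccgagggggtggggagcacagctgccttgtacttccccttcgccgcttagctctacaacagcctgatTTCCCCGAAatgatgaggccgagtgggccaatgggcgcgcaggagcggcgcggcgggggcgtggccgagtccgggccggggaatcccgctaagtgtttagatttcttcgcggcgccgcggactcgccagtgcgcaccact
Irf7: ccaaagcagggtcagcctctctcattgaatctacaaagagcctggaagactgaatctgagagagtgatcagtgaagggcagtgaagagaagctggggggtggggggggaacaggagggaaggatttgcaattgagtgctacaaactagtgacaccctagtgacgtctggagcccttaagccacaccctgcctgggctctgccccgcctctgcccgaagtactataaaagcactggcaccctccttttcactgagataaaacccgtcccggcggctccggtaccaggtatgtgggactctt

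In Isg15 the capitals are 3 overlapping matches to the ISRE core, in Ifit1 2 separate matches on the opposite strand, and in Irf1 1 match to the GAS core. In Irgm2 the first run in capitals, TTCCAGGAA, is the GAS match and the second, GAAACTGAAA, the ISRE match, and these do not overlap. The ISRE core was found in 18 of the 34 member windows (52.9%) and in 3.44% of all 32851 windows in the table. The GAS core was found in 9 of the 34 (26.5%) and in 8.30% of all windows, and 6 member windows held both. Of the members called lower in the main comparisons below, Ifi35, Irf7, Xaf1 and Oasl1 have a window, and Rtp4, Usp18 and Dhx58 have none. None of these windows holds the ISRE core, while that of Ifi35 holds a GAS match. Other members lay below C in M without overlap but were not called. Of these, Isg15, Ifit1, Ifit3 and Ddx58 hold the ISRE core and Ifit2 does not. A match is a description of letters and not a bound site.

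Recovered reads (single reads or read pairs, which the table does not tell) ran from 53879277 to 57046246 in M, from 52392521 to 65165613 in A-C and from 45597163 to 46631110 in C. Levels are given as scaled TPM. TPM is a gene's length-corrected share of the transcripts in a library, and it was divided by a factor per library to remove differences in RNA composition. Changes are on the log2(scaled TPM + 1) scale, which understates changes of genes near or below 1 TPM. A member is said to be called, to have risen or to have fallen where limma's adjusted p was under 0.05. The labels name the cell type hepatocyte. Hepatocyte markers summed to between 68299 and 85016 TPM in M, 72019 and 123443 in A-C and 132672 and 142832 in C, with Alb, the gene of serum albumin, at 45294 TPM or more in each library. Of these 6, Apoa1 alone was called against C, lower in M (-1.80, limma adjusted p = 0.00290) and in A-C (-0.95, adjusted p = 0.0212). That is 16.7%, against 6.77% of all tested genes in M and 7.17% in A-C. Cps1 and Asgr1 had changes above 0 in both comparisons and the other 4 below 0. Markers of other liver cells were also present: the 6 Kupffer cell markers summed to 111 to 127 TPM in M, 119 to 177 in A-C and 78.9 to 109 in C, and no marker of the 10 cell type lists was at 0 in all libraries.

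The members spanned a wide range of levels. Averaged over the 9 libraries, Bst2 (tetherin, which holds budding virus at the cell surface) was highest at 317 TPM, followed by the GTPase Iigp1 at 98.5 TPM and Ifi27 at 63.2 TPM. Of the 35 tested members, 10 averaged 10 TPM or more and 20 averaged under 5 TPM. Oasl2 was the lowest tested member at 1.03 TPM. Reads per tested member and library ran from 16, for Cxcl10, to 20934, so the lowest members carry the most counting error.

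**Figure D1:**
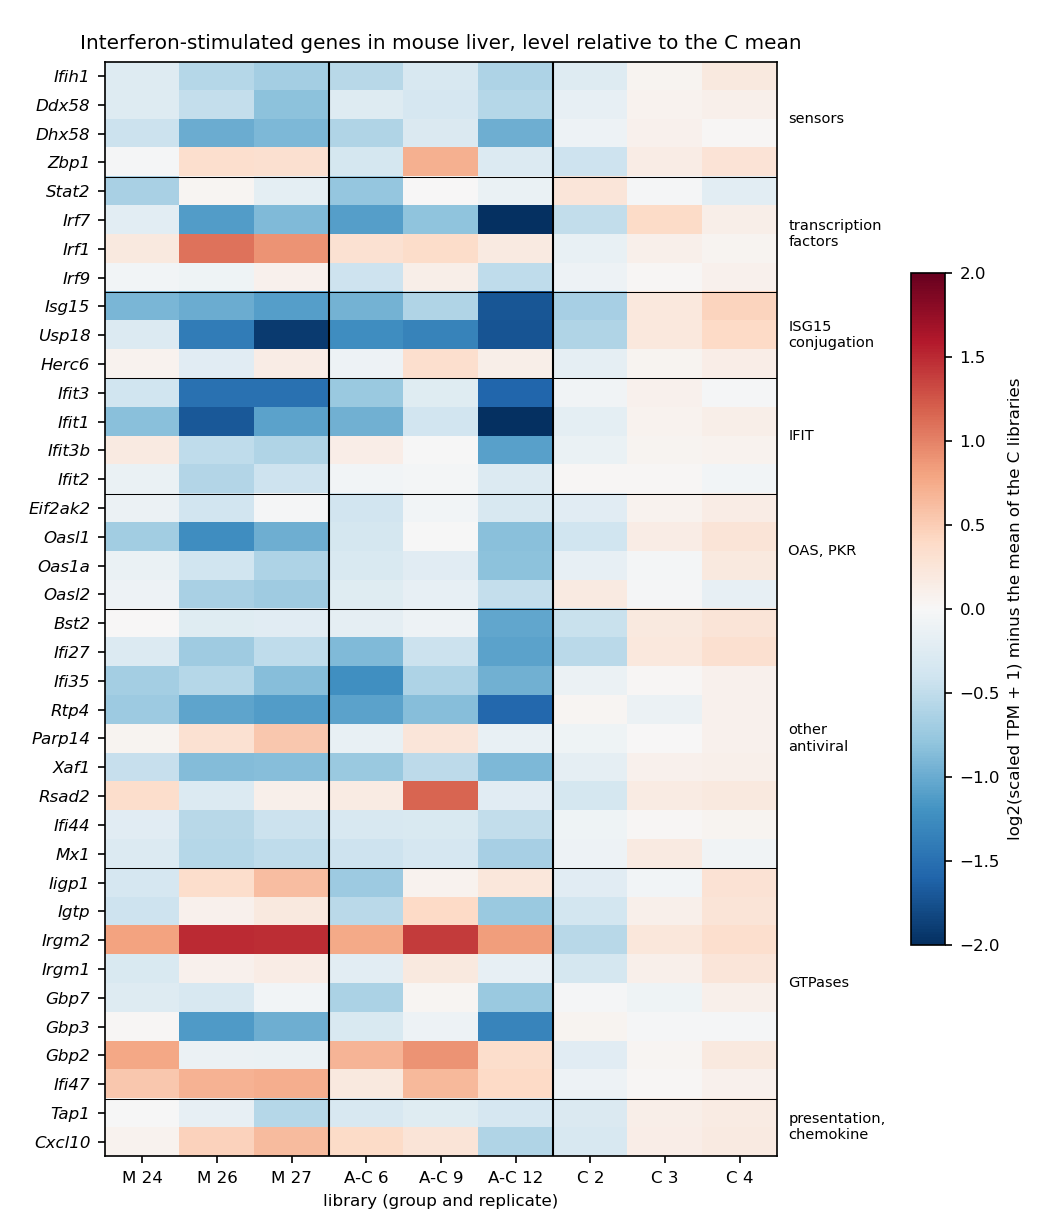
Each row is a member, ordered by role, and each column a library; colour gives log2(scaled TPM + 1) minus the mean of the 3 C libraries (scale from -2, blue, to 2, red). All M and A-C columns are blue for Ifih1, Ddx58, Dhx58, Isg15, Usp18, Ifit1, Ifit3 and Rtp4, with Irf7 in A-C 12 and Usp18 in M 27 among the deepest cells, and Irgm2 is red in all M and A-C columns.

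In A-C against C, 5 of the 35 tested members fell, 1 rose and 29 were not called. Those that fell were Rtp4, Ifi35, Xaf1, Irf7 and Usp18, with mean levels in C that were between 1.93 and 3.84 times those in A-C. The member that rose was Irgm2, at 2.07 times the C mean. Over all 11086 tested genes, 7.17% were called lower and 9.65% higher. The A-C and C libraries did not overlap for 13 members lower in A-C, against 18.4% of all tested genes, and for 3 members higher in A-C, against 22.7%. The median change over the 35 was -0.32 and that over all tested genes 0.03, with 28 members below 0 and 7 above.

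In M against C, 5 members fell, 2 rose and 28 were not called. Rtp4, Xaf1, Ifi35, Oasl1 and Dhx58 fell, and Irgm2 and Irf1 rose. Over all tested genes 6.77% were called lower and 9.29% higher. The libraries did not overlap for 10 members lower in M (17.9% of all tested genes) and 2 higher in M (23.7%). The median change was -0.31, against 0.05 over all tested genes. Both comparisons use the same C libraries, so their values are not independent of each other.

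In M against A-C no member was called, with 0.0361% of all tested genes called higher and 0.135% lower. Oasl1 alone had an unadjusted p under 0.05, against 11.5% of all tested genes. The M and A-C libraries overlapped for all 35 tested members, whereas 7.70% of all tested genes were higher in M without overlap and 8.49% lower. The median change was 0.06, against 0.02 over all tested genes. No other tool was run on this comparison.

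**Figure D2:**
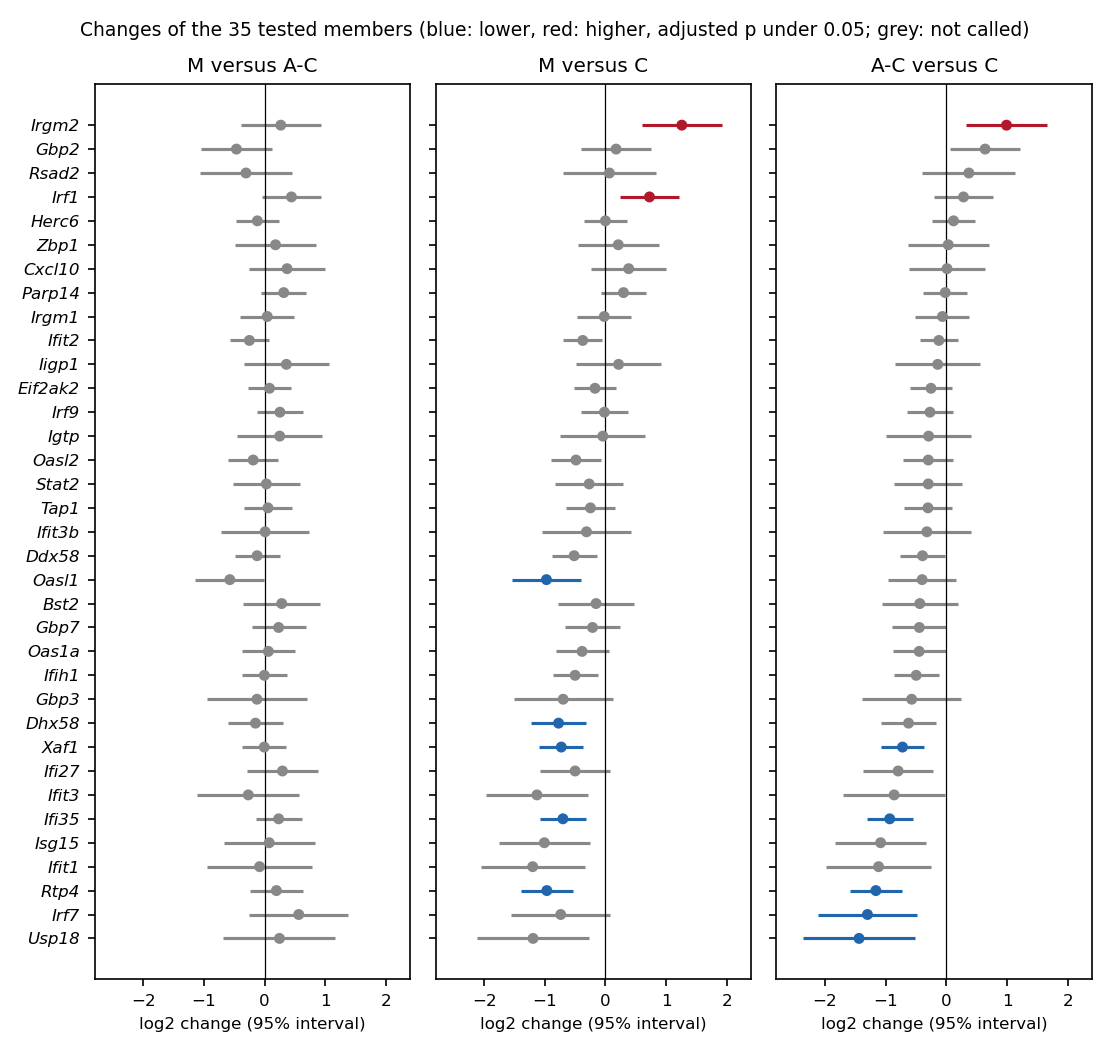
Points are log2 changes of the 35 tested members with their 95% intervals, for M versus A-C, M versus C and A-C versus C, in the order of the A-C versus C change. Blue and red points have an adjusted p under 0.05; in M versus A-C there are none, and in the other panels 5 are blue in each, with 2 red in M versus C and 1 in A-C versus C.

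Among the other antiviral proteins, Rtp4, a chaperone of membrane receptors that restricts viral RNA replication, had 7.35, 5.70 and 5.38 TPM in M livers, 5.62, 6.66 and 3.69 TPM in A-C livers, against 13.2, 11.7 and 13.7 TPM in C livers. Every C library lay above every M and A-C library. The change was -1.16 in A-C against C (SE 0.19, limma adjusted p = 0.00808) and -0.97 in M against C (SE 0.19, adjusted p = 0.0165). The A-C call held in all 16 alternative fits, with an adjusted p of at most 0.0344. The M call was lost in 4, namely without M 26, M 27, C 2 or C 3 (adjusted p = 0.0538, 0.0756, 0.0539 and 0.0600). The gene lies at chr16:23520291-23614222 in mm10, and 10.5% of its 75-base words also occur in the gene Gm45338, so some of its reads could be counted elsewhere.

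Ifi35, an interferon-induced leucine zipper protein (chr11:101448407-101458698), had 22.2, 23.8 and 19.4 TPM in M livers, 14.8, 23.2 and 17.9 TPM in A-C livers and 33.1, 36.7 and 38.1 TPM in C livers. The C libraries again lay above the rest. The change was -0.93 in A-C against C (SE 0.17, limma adjusted p = 0.0114) and -0.70 in M against C (SE 0.17, adjusted p = 0.0282). The A-C call was lost only without C 3, at an adjusted p of 0.0547. The M call was lost without M 26, M 27 or any C library (adjusted p between 0.0576 and 0.113), in the TPM as deposited (0.111) and with no filter on low values (0.0520).

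Xaf1, known in human cells as a binding partner of the apoptosis inhibitor XIAP (chr11:72301629-72313733), was a low member with 97 to 264 reads per library. It had 1.56, 0.937 and 0.961 TPM in M livers, 1.11, 1.46 and 0.893 TPM in A-C livers and 2.11, 2.75 and 2.79 TPM in C livers, with no overlap between C and the others. The change was -0.72 in A-C against C (SE 0.16, limma adjusted p = 0.0200) and -0.73 in M against C (SE 0.16, adjusted p = 0.0221). The A-C call was lost without A-C 12, C 3 or C 4 (adjusted p between 0.0501 and 0.0805), and the M call without M 26, M 27, C 3 or C 4 (adjusted p between 0.0605 and 0.0910).

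Of the remaining members of this role, Bst2 had 355, 299 and 300 TPM in M, 312, 331 and 172 TPM in A-C and 259, 402 and 421 TPM in C, and the groups overlapped. Ifi27, a small membrane protein of mitochondria and the nuclear envelope, had 67.1, 49.2 and 57.3 TPM in M, 44.0, 60.1 and 38.3 TPM in A-C and 56.1, 94.4 and 103 TPM in C, with a change in A-C of -0.79 (SE 0.26, limma adjusted p = 0.0617). C replicate 2 lay within the range of M and A-C for both. Parp14 and Rsad2 (viperin) were not called in any comparison. Rsad2 in A-C replicate 9 was at 3.58 TPM, against 0.590 to 1.61 TPM in the other 8 libraries.

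**Figure D3:**
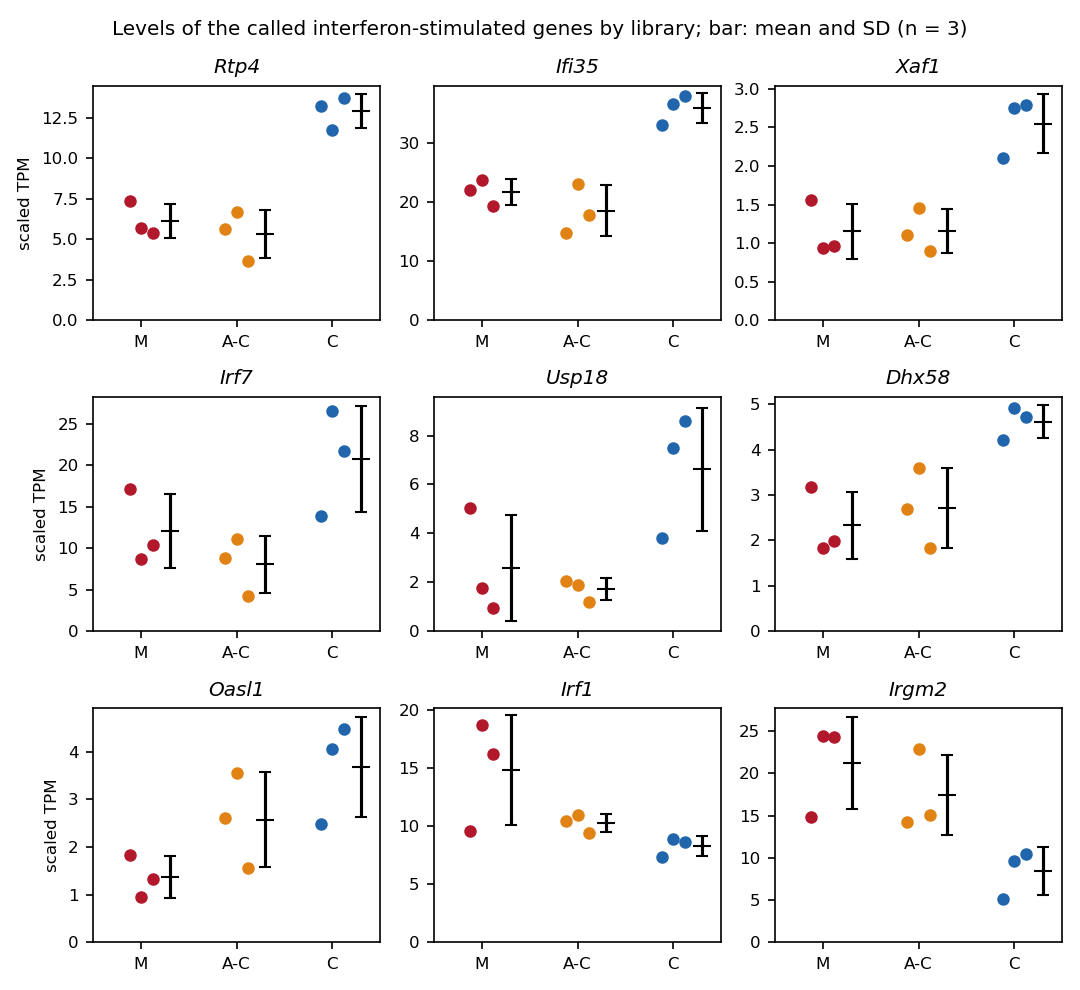
Scaled TPM of the 9 members called in at least 1 comparison, 1 panel each, for M, A-C and C from left to right; points are libraries and the bars beside them the mean and SD (n = 3). For Rtp4, Ifi35 and Xaf1 the C points lie above all others, and for Irgm2 they lie below (10.4 TPM at most in C).

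Of the transcription factors, Irf7 was called only in A-C against C and Irf1 only in M against C. Irf7, which drives interferon alpha production (chr7:141262706-141266481), had 17.2, 8.76 and 10.4 TPM in M livers, 8.79, 11.1 and 4.28 TPM in A-C livers and 13.9, 26.5 and 21.7 TPM in C livers. It fell in A-C (change -1.30, SE 0.36, limma adjusted p = 0.0396) and was not called in M (-0.74, SE 0.36, adjusted p = 0.180), where M replicate 24 lay above C replicate 2. The A-C call was near the threshold: 7 of the 9 fits that leave out a library lost it, those without M 27 or without any A-C or C library (adjusted p between 0.0511 and 0.137, the highest without C 3). It was also lost in the TPM as deposited (0.0623) and with no filter (0.0749).

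Irf1, a factor induced by interferon gamma and by inflammatory cytokines (chr11:53770014-53778374), had 9.61, 18.7 and 16.2 TPM in M livers, 10.5, 11.0 and 9.46 TPM in A-C livers and 7.33, 8.93 and 8.66 TPM in C livers. The M and A-C libraries all lay above those of C. Irf1 rose in M against C (0.72, SE 0.21, limma adjusted p = 0.0496) and was not called in A-C (0.28, SE 0.21, adjusted p = 0.373). The M call was lost in 11 of 16 alternatives. Among them were the fits without M 26, M 27, A-C 6, A-C 9 or any C library (adjusted p between 0.0571 and 0.169, the highest without M 27). The other 4 were no filter, the filter at 0.1 TPM, no trend and robust settings, and only the 2 groups (adjusted p between 0.05005 and 0.0902). Against A-C, M had a change of 0.44 with a 95% interval from -0.04 to 0.93 (adjusted p = 0.474).

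The components of ISGF3 among the members were not called. Stat2 had 16.8, 27.7 and 23.5 TPM in M, 15.3, 27.2 and 24.6 TPM in A-C and 31.9, 26.5 and 23.2 TPM in C, and its order of libraries in C ran opposite to that of most members. Its change was -0.27 in M (SE 0.25, limma adjusted p = 0.461) and -0.30 in A-C (SE 0.25, adjusted p = 0.415). Irf9 lay between 7.06 and 11.4 TPM in all 9 libraries.

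Of the sensors, Dhx58 (LGP2, which modulates RIG-I-like signalling, chr11:100694884-100704271) had 3.18, 1.83 and 1.99 TPM in M livers, 2.70, 3.60 and 1.83 TPM in A-C livers and 4.20, 4.92 and 4.72 TPM in C livers. C lay above the other groups without overlap. Dhx58 fell in M (-0.77, SE 0.20, limma adjusted p = 0.0366) and was not called in A-C (-0.62, SE 0.20, adjusted p = 0.0640). The M call was lost without M 26, M 27 or any C library (adjusted p between 0.0792 and 0.132), in the TPM as deposited (0.0806) and with no filter (0.0700).

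Ddx58 (RIG-I, the sensor of short viral RNA) had 3.91, 3.24 and 2.35 TPM in M, 3.89, 3.64 and 2.96 TPM in A-C and 4.24, 5.17 and 5.29 TPM in C. The C libraries were above all others, yet the change passed the threshold neither in M (-0.52, SE 0.16, limma adjusted p = 0.0608) nor in A-C (-0.39, SE 0.16, adjusted p = 0.123). Ifih1 (MDA5, the sensor of long viral RNA) had 5.51, 4.22 and 3.82 TPM in M, 4.28, 5.17 and 4.07 TPM in A-C and 5.5, 7.09 and 7.84 TPM in C, with a change in M of -0.50 (SE 0.16, adjusted p = 0.0660). Zbp1, a sensor of left-handed nucleic acid that triggers cell death, ran from 1.65 TPM in C replicate 2 to 4.79 TPM in A-C replicate 9 and was not called.

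In ISG15 conjugation, Usp18, the protease that removes ISG15 from proteins and blocks signalling at Ifnar2 (chr6:121245906-121270917), had 5.06, 1.78 and 0.937 TPM in M livers, 2.08, 1.88 and 1.21 TPM in A-C livers and 3.80, 7.47 and 8.60 TPM in C livers. A-C did not overlap C, and M replicate 24 lay above C replicate 2. Usp18 fell in A-C (-1.44, SE 0.41, limma adjusted p = 0.0427) and was not called in M (-1.19, SE 0.41, adjusted p = 0.0735). The A-C call was lost in 10 of 16 alternatives, among them those without M 26, any A-C library, C 3 or C 4 (adjusted p between 0.0572 and 0.134, the highest without C 3). The other 4 were the TPM as deposited, no filter, the filter at 0.1 TPM and the pseudocount of 0.1 (adjusted p between 0.0509 and 0.0798).

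Isg15, the ubiquitin-like modifier itself, had 12.7, 12.1 and 11.0 TPM in M livers, 12.5, 16.1 and 6.94 TPM in A-C livers and 15.4, 29.0 and 34.6 TPM in C livers. All M libraries lay below C, and A-C replicate 9 lay just above C replicate 2. The change was -1.01 in M (SE 0.33, limma adjusted p = 0.0668) and -1.08 in A-C (SE 0.33, adjusted p = 0.0538), on the other side of the threshold in both. Herc6, the ligase that joins ISG15 to proteins in mouse, lay between 1.19 and 2.22 TPM throughout. Of its 75-base words, 11.3% occur in other genes.

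None of the 4 IFIT genes, whose proteins bind foreign RNA ends and block translation, was called. Ifit1 had 3.16, 1.29 and 2.53 TPM in M livers, 2.79, 4.71 and 0.846 TPM in A-C livers and 5.48, 6.8 and 7.06 TPM in C livers, with C above the other groups. Its change was -1.20 in M (SE 0.38, limma adjusted p = 0.0610) and -1.12 in A-C (SE 0.38, adjusted p = 0.0723). Ifit3 showed the same order, with 8.75, 3.56 and 3.57 TPM in M, 6.69, 9.83 and 3.27 TPM in A-C and 11.2, 12.7 and 11.7 TPM in C. Ifit3 and Ifit3b share 41.1% and 35.7% of their 75-base words, so reads may be split between them. Ifit2 was lower in M (0.648 to 1.26 TPM) than in C (1.38 to 1.52 TPM) without overlap, on few reads.

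Among the OAS genes, which make the messenger that activates RNase L or, for OAS-like members, act without that activity, Oasl1 (in mouse, a translational inhibitor of Irf7; chr5:114923240-114937915) had 1.82, 0.946 and 1.33 TPM in M livers, 2.61, 3.55 and 1.56 TPM in A-C livers and 2.48, 4.06 and 4.48 TPM in C livers. M lay below C without overlap, and A-C overlapped both. Oasl1 fell in M against C (-0.97, SE 0.25, limma adjusted p = 0.0345). Against A-C, M had a change of -0.57 with a 95% interval from -1.14 to -0.01 (adjusted p = 0.428). The call against C was lost without M 26, M 27, C 3 or C 4 (adjusted p between 0.0932 and 0.117), in the TPM as deposited (0.0516) and with no filter (0.0682). Oas1a, with 47.6% of its 75-base words shared with Oas1g, had 1.28 to 2.18 TPM in M, 0.985 to 2.0 TPM in A-C and 2.13 to 3.03 TPM in C. Eif2ak2, the gene of PKR, lay between 3.24 and 5.13 TPM.

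The interferon-inducible GTPases, which attack the vacuoles of intracellular pathogens, had changes of both signs against C: 3 of the 7 tested were above 0 in M and 2 in A-C. Irgm2, a regulator of the effector GTPases (chr11:58199618-58222782), had 14.9, 24.4 and 24.3 TPM in M livers, 14.3, 22.8 and 15.1 TPM in A-C livers and 5.14, 9.63 and 10.4 TPM in C livers. Every M and A-C library lay above every C library. Irgm2 rose in M (1.26, SE 0.29, limma adjusted p = 0.0254) and in A-C (0.99, SE 0.29, adjusted p = 0.0481). The A-C call was lost in 11 of 16 alternatives, among them the fits without M 26, M 27, A-C 9, A-C 12 or any C library (adjusted p between 0.0590 and 0.153, the highest without A-C 9). The other 4 were median-of-ratios scaling, no filter, the filter at 0.1 TPM and only the 2 groups (adjusted p between 0.0502 and 0.0884). The M call was lost without M 26, M 27, C 2 or C 3 (adjusted p between 0.0709 and 0.105) and with no filter on low values (0.0521).

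The Irgm2 and Igtp genes (Igtp at chr11:58199556-58207591) overlap on the same strand and share 162 exon bases, so reads there cannot be assigned to either. Igtp had 18.2, 26.1 and 28.4 TPM in M, 16.7, 32.8 and 14.3 TPM in A-C and 18.9, 26.6 and 29.6 TPM in C, and was not called. Irgm1, the third regulator, lay between 4.82 and 7.74 TPM, with changes of -0.02 in M and -0.06 in A-C (SE 0.20 in both, limma adjusted p = 0.952 and 0.841) that were above 0 in the TPM as deposited. Iigp1, an effector, had 74.3, 120 and 145 TPM in M, 56.2, 98.2 and 110 TPM in A-C and 80.0, 89.8 and 114 TPM in C.

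Gbp2, a guanylate-binding protein, had 3.22, 1.29 and 1.26 TPM in M, 2.95, 3.62 and 2.15 TPM in A-C and 1.12, 1.53 and 1.83 TPM in C. The A-C libraries lay above those of C (change 0.64, SE 0.26, limma adjusted p = 0.112), while in M only replicate 24 lay above them. Gbp3 had 3.52, 1.04 and 1.26 TPM in M, 2.62, 3.17 and 0.794 TPM in A-C and 3.63, 3.38 and 3.38 TPM in C. In M, replicate 24 was again the highest of the group. Tap1, the peptide transporter of antigen presentation, lay between 3.27 and 6.15 TPM and Cxcl10, a T cell attractant, between 0.307 and 2.07 TPM. Neither was called. Cxcl10 shares 133 exon bases with Art3 and Tap1 212 with Psmb9 on the opposite strand, and Irf9 shares 123 with Rnf31 on its own strand. Since the use of strand in counting is not known, reads there may belong to either gene.

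The 3 members below the filter were at under 1 TPM in every library. Ifi47, another immunity-related GTPase, had 0.646, 0.842 and 0.879 TPM in M, 0.298, 0.778 and 0.506 TPM in A-C and 0.0609, 0.158 and 0.203 TPM in C, with every C library lowest. Mx1, an interferon-induced GTPase, had 0.391, 0.132 and 0.181 TPM in M, 0.251, 0.328 and 0.0570 TPM in A-C and 0.557, 0.890 and 0.596 TPM in C. Ifi44 had 0.270 to 0.587 TPM in M, 0.324 to 0.504 TPM in A-C and 0.762 to 0.948 TPM in C. With the filter set at 0.1 TPM they could be tested. Mx1 fell in A-C (-0.47, limma adjusted p = 0.0378) and had a change of -0.45 in M (limma adjusted p = 0.0502). Ifi44 fell in M (-0.41, limma adjusted p = 0.0432) and in A-C (-0.38, limma adjusted p = 0.0471). Ifi47 rose in M (0.65, limma adjusted p = 0.0185) and was not called in A-C (0.41, limma adjusted p = 0.0564). With no filter at all, only Ifi47 in M was still called (limma adjusted p = 0.0309).

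In A-C and C most members shared their highest and lowest library, while in M the lowest value was spread over the 3 libraries. In A-C, replicate 9 held the highest value for 30 of the 35 tested members, against 19.0% of all tested genes, and replicate 12 the lowest for 27, against 41.5%. In C, replicate 2 was lowest for 29 members (47.9% of all tested genes) and replicate 4 highest for 27 (39.9%). In M, replicate 24 was highest for 21 (37.7%), and the lowest value fell to replicate 26 for 15 members, to replicate 27 for 11 and to replicate 24 for 9 (30.4%, 28.8% and 40.8% of all tested genes). In the TPM as deposited and with median-of-ratios scaling, A-C replicate 9 was highest for 31 and 30 members and A-C replicate 12 lowest for 25 and 27. The summed share of TPM from 23 acute phase genes, which liver cells make in inflammation, was 4.57% in M 24, 16.3% in M 26 and 12.2% in M 27. It was 3.77% in A-C 6, 8.90% in A-C 9 and 22% in A-C 12, against 2.83% to 3.30% in C. Mitochondrially encoded mRNAs held 27.6% of TPM in C replicate 2 and at most 15.4% in any other library. Their part in the order of the members was not tested.

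**Figure D4:**
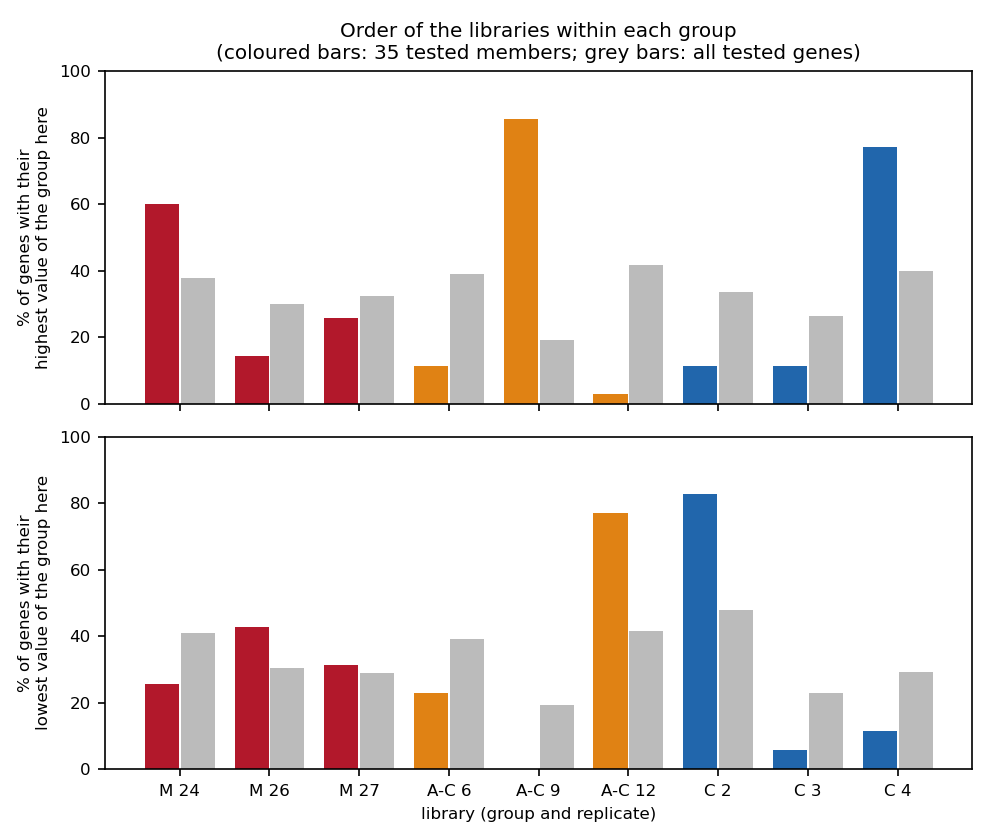
For each library, the coloured bar gives the percent of the 35 tested members that have their highest (top) or lowest (bottom) value of the group there, and the grey bar the same over all tested genes. A-C 9 holds the highest value for 30 of 35 members and A-C 12 the lowest for 27, C 2 the lowest for 29 and C 4 the highest for 27.

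The counts of calls turned on single libraries, and so did those over all tested genes, though not always in the same direction. With all libraries, 5 members were called lower in A-C against C, of 795 genes in all. With 1 library left out, the genes called lower over all tested genes ran from 65 to 1097 in M against C and from 114 to 963 in A-C against C. Without M replicate 24, 13 members were called lower in M against C (of 1097 genes in all), and these were Ddx58, Dhx58, Gbp3, Ifi35, Ifih1, Ifit1, Ifit2, Ifit3, Oasl1, Oasl2, Rtp4, Usp18 and Xaf1. Without M replicate 26, without M replicate 27 or without C replicate 3 no member was called lower in M (of 200, 72 and 65 genes in all). Without C replicate 4 only Rtp4 was (of 351 genes in all). There were 3 without C replicate 2 (of 247) and 9 without A-C replicate 12 (of 1042). In A-C against C, 1 member was called lower without C replicate 3 (of 114 genes in all). There were 2 without C replicate 4 or A-C replicate 12 (of 403 and 507). There were 3 without A-C replicate 6 (of 899) and 7 without M replicate 24 (of 963). Rtp4 and Ifi35 were the pair that remained without A-C replicate 12.

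Other genes of the pathway were taken from lists. The shares called over all tested genes were 6.77% lower and 9.29% higher in M against C, and 7.17% and 9.65% in A-C against C. Of 20 interferon genes, 17, including Ifnb1 and the 12 interferon alpha genes of the list, were listed at 0 in all 9 libraries. The rest were Ifnk, with at most 7 reads in a library, and Ifng and Ifnz, with at most 2 each. A count of 0 allows up to 3 reads of the 45597163 in the shallowest library, which covers counting error only. Interferon alpha genes are close copies of each other and the treatment of reads that match several genes is not known, so these genes are given only as listed at 0.

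Of the 10 receptor and JAK-STAT genes, 9 were tested and 1 was called. That is 11.1% in M and in A-C, against 9.29% and 9.65% of all tested genes called higher. Ifngr2, the signalling chain of the interferon gamma receptor, had 6.88, 9.04 and 7.09 TPM in M, 7.38, 8.78 and 7.29 TPM in A-C and 5.18, 4.96 and 5.24 TPM in C. It rose in M (0.49, SE 0.13, limma adjusted p = 0.0372) and in A-C (0.52, SE 0.13, adjusted p = 0.0288).

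Upstream of interferon, 12 of 16 sensors, adaptors and kinases were tested. Of these, 2 rose in M and 3 in A-C (16.7% and 25%, against 9.29% and 9.65% of all tested genes). Mavs, the mitochondrial adaptor of RIG-I and MDA5, had 37.6, 47.5 and 52.8 TPM in M, 43.5, 50.1 and 40.5 TPM in A-C and 21.5, 26.5 and 31.6 TPM in C (change in M 0.77, SE 0.18, limma adjusted p = 0.0259; in A-C 0.74, SE 0.18, adjusted p = 0.0270). Tbk1, the kinase that activates Irf3, rose in both (M 0.61, adjusted p = 0.0465; A-C 0.61, adjusted p = 0.0437). Trim25, a ubiquitin ligase that acts on RIG-I, rose in A-C (0.76, adjusted p = 0.0219). No gene of this list fell in either comparison.

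Of 13 negative regulators, 10 were tested. In each comparison with C 1 rose (10%, against 9.29% of all tested genes in M and 9.65% in A-C). In A-C 1 fell (10%, against 7.17%). Ptpn11, the phosphatase SHP2, had 16.3, 17.0 and 22.4 TPM in M, 14.6, 17.9 and 16.1 TPM in A-C and 8.14, 9.68 and 10.4 TPM in C, and rose in M (0.90, SE 0.16, limma adjusted p = 0.0117) and in A-C (0.73, SE 0.16, adjusted p = 0.0186). Irf2, which competes with Irf1 for its sites, had 27.7, 22.8 and 23.6 TPM in M, 15.5, 16.3 and 14.4 TPM in A-C and 25.7, 25.0 and 20.3 TPM in C. It fell in A-C against C (-0.58, SE 0.14, adjusted p = 0.0235), and M against A-C had a change of 0.65 (adjusted p = 0.140). Trex1 is listed at 0 in all libraries.

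A list of 74 other interferon-stimulated genes had 57 tested. In M 10 fell (17.5%, against 6.77% of all tested genes) and none rose (against 9.29%). In A-C 8 fell (14.0%, against 7.17%) and 4 rose (7.02%, against 9.65%). The median changes of the 57 were -0.15 in M and -0.16 in A-C, against 0.05 and 0.03 over all tested genes. Ifi27l2a, a relative of Ifi27, had 17.2, 7.74 and 7.56 TPM in M, 12.4, 12.9 and 10.4 TPM in A-C and 20.5, 34.7 and 35.1 TPM in C, and fell in M (-1.45, SE 0.31, limma adjusted p = 0.0207) and in A-C (-1.24, SE 0.31, adjusted p = 0.0292). Mndal, a DNA-binding protein of the p200 family, fell in M (-0.94, adjusted p = 0.0234) and also in A-C. Oas1b is among the genes counted as lower in both comparisons, but it passed the filter on low values only through C, so its call is not a result. B2m, the light chain of MHC class I, had 4130.2, 3418 and 3162 TPM in M, 3902, 3765 and 2494 TPM in A-C and 6459, 5584 and 5459.7 TPM in C, and fell in A-C (-0.81, SE 0.21, adjusted p = 0.0328; in M -0.71, adjusted p = 0.0504). Those that rose in A-C were Pnp (1.40, adjusted p = 0.0487), which breaks down purine nucleosides, Tor3a (1.13, adjusted p = 0.0337), Lgals3bp (1.01, adjusted p = 0.00636), a secreted galectin-binding protein, and Ifitm1 (0.97, adjusted p = 0.0415). Lgals3bp and Ifitm1 were named after their values were seen.

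Among 19 genes of MHC class I presentation, all tested, 2 fell in M (10.5%, against 6.77% of all tested genes). In A-C 3 fell (15.8%, against 7.17%) and 1 rose (5.26%, against 9.65%). B2m, already counted in the list above, is 1 of the 3 that fell in A-C. Psme1, an activator subunit of the proteasome, had 82.4, 74.3 and 76.3 TPM in M, 90.0, 79.9 and 65.4 TPM in A-C and 124, 130 and 116 TPM in C, and fell in both (M -0.66, limma adjusted p = 0.0229; A-C -0.65, adjusted p = 0.0209). Psmb10, a subunit of the immunoproteasome, fell in A-C (-0.89, adjusted p = 0.0182). H2-D1 rose in A-C (0.54, adjusted p = 0.0275) and H2-Q6 fell in M (-0.65, adjusted p = 0.0360), and since class I heavy chain genes are close copies their counts are uncertain. H2-D1 was named after its value was seen. Of 4 tested GTPases outside the 38, Gbp8 alone was called, lower in M and A-C. It reached 1 TPM in 3 C libraries, 1 M library and 0 A-C libraries. It thus passed the filter on low values through C, so its calls are not a result. Of 4 tested chemokines, Ccl5, made largely by T and NK cells, fell in M (-1.13, adjusted p = 0.0172) and A-C (-0.98, adjusted p = 0.0232).

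Of the markers of other cells, some of the B and plasma, endothelial, Kupffer and stellate cell lists were called against C, and none of the neutrophil, monocyte, T and NK, plasmacytoid dendritic and cholangiocyte lists was. The 7 B and plasma cell markers summed to 5.95 to 10.1 TPM in M, 7.76 to 9.06 in A-C and 34.3 to 47.0 in C, and 3 were tested. Ighm and Igkc fell in both comparisons, and Jchain was tested only because of its level in C, so its call is not a result. The 6 markers of plasmacytoid dendritic cells, which make interferon alpha, summed to 1.54 to 1.80 TPM in M, 1.47 to 2.31 in A-C and 2.6 to 3.08 in C. Only 1 was tested and it was not called. Siglech, a receptor of these cells, had 0.236 to 0.285 TPM in M, 0.114 to 0.357 in A-C and 0.875 to 1.14 in C, but Cox6a2 had 0 to 0.118 TPM in M, 0.310 to 0.572 in A-C and 0.0737 to 0.431 in C, and Klk1 had 0.107 to 0.186 TPM in M, 0.261 to 0.409 in A-C and 0.272 to 0.372 in C. The 6 endothelial markers summed to 60.9 to 90.0 TPM in M, 122 to 128 in A-C and 37.8 to 61.1 in C. Of these, 2 rose in M and 5 in A-C (33.3% and 83.3%, against 9.29% and 9.65% of all tested genes). Of the Kupffer cell markers, Cd5l rose in both and Adgre1 in A-C. Of the stellate cell markers, Lrat rose and Col3a1 fell in both, and Col1a1 fell in M. The 6 neutrophil markers summed to 4.32 to 59.7 TPM in M, 3.60 to 55.7 in A-C and 1.04 to 6.01 in C, with Mpo at no more than 1 read in any library, and the 6 T and NK cell markers to 1.34 to 3.14 TPM over all libraries. Their part in the changes of the interferon-stimulated genes was not tested.

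The scaling set the size of these changes. In the TPM as deposited, the median over all tested genes was 0.27 in M against C, 0.06 in M against A-C and 0.22 in A-C against C, against 0.05, 0.02 and 0.03 with the scaling used here. The median of the 35 members was then -0.13, 0.10 and -0.17. With median-of-ratios scaling it was -0.32 in M and -0.33 in A-C against C. In both comparisons with C it lay below the median over all tested genes under each of the 3 scalings.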

How the data were processed

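Total RNA was extracted from mouse liver with Trizol and turned into libraries with a Novogene kit, according to the labels' protocols. Per the submitters' processing notes the genome build was mm10. Aligner, counter and strandedness were not given in the sources used here. What the authors deposited is 1 table of TPM with exon lengths. Its 32248 lines include 452 lines of 168 repeated gene IDs, and 1 line per ID was kept. TPM times exon length gave whole multiples of 1 step per library (99.96% to 100% of values within 0.1), from which reads were recovered for TMM scaling (trimming 30% of log ratios and 5% of mean levels). The divisors were 1.07 to 1.10 in M, 1.00 to 1.09 in A-C and 0.867 to 0.902 in C.

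Genes with a TPM of at least 1 in at least 3 of 9 libraries were tested (11086). The test was limma 3.58.1 in R 4.3.3 on log2 of the deposited TPM after scaling, plus 1, with trend and robust settings, all 9 libraries in 1 fit (6 residual degrees of freedom) and Benjamini-Hochberg adjustment within a comparison at 0.05. SDs have n = 3. The fit was tested on simulated data. The members and lists were chosen with earlier results of these data known. Of 268 list entries, 267 were matched, and 1 of these genes is not reported here. Changes and p-values are given for called members, the 3 next by moderated statistic and a fixed set with 1 or 2 members of each role, and for up to 3 called genes per list. Member coordinates are those of the deposited table, and 37 of 38 equal GENCODE's. Shared 75-base words were counted in GENCODE transcripts. The alternatives were 16: other scalings, filters, pseudocount and fit settings, and each library left out.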

Additional observations from a re-analysis of the deposited data

How the results depend on the processing

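No paired analysis was possible because the groups share no replicate number. Of the 51 changes of named members, each refitted under 16 alternatives (816 values), 696 kept direction and side of the threshold, 78 kept direction but were no longer past it, 15 passed it newly and 27 changed sign; none of those whose sign changed had been called. The count of members called in M against A-C was 0 in each direction under all 16. In A-C against C, 1 member was called higher, and 0 with median-of-ratios scaling, no filter, the filter at 0.1 TPM or only the 2 groups compared; 5 were called lower, and 3 in the TPM as deposited or with no filter. In M against C, 2 were called higher, and 1 with no filter (Ifi47, in place of Irgm2 and Irf1), without trend and robust settings or with only the 2 groups; 5 were called lower, and 2 in the TPM as deposited or with no filter and 8 with only the 2 groups. Leaving out 1 library gave 0 to 2 higher and 1 to 7 lower in A-C against C, and 0 to 2 higher and 0 to 13 lower in M against C. Over all tested genes the same fits gave 196 to 1223 higher and 114 to 963 lower in A-C against C, and 119 to 1409 higher and 65 to 1097 lower in M against C. For the other scalings, filters, pseudocount and fit settings, counts over all tested genes are not given here. Moves of the member counts under those settings are therefore not a result about the members. The cause of the moves in these counts was not tested. In A-C against C, the Cxcl10 change was -0.086 with a pseudocount of 0.1, and -0.18 to 0.32 with a library left out; that of Irgm1 was 0.13 in the TPM as deposited and -0.24 to 0.056 with a library left out. In M against C, Irgm1 was 0.22 in the TPM as deposited and -0.19 to 0.12 with a library left out, and Gbp2 -0.12 to 0.33. In M against A-C, leaving out a library gave -0.25 to 0.025 for Ddx58, -0.53 to 0.29 for Ifit1, -0.044 to 0.19 for Irgm1, -0.24 to 0.32 for Isg15, -0.12 to 0.18 for Oas1a, -0.21 to 0.22 for Stat2, -0.067 to 0.22 for Tap1 and -0.22 to 0.61 for Usp18. Members with few reads, such as Cxcl10 with 16 to 116 per library, carry the most counting error.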
